A study of Mus musculus with 10 samples.

Results

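The enzymes of mitochondrial fatty acid beta-oxidation were followed through Acadvl, Acadl, Acadm, Acad9, Hadha, Hadhb, Echs1, Hadh, Acaa2 and Etfdh. They were found as the rows of the deposited gene count table whose comma-separated name holds 1 of these symbols, and all 10 had a row among 49624 distinct row names. Acad9 shares its row with the predicted gene Gm43079 and Etfdh shares its row with Gm37973, so these rows hold the reads of both genes. All 10 were among the 16057 genes tested.

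RNA sequencing was done on blastocyst-derived mouse embryonic stem cells in 2i/LIF medium, which holds the MEK inhibitor PD0325901 (1 µM), the GSK3 inhibitor CHIR99021 (3 µM) and the cytokine LIF (1000 U/ml). The KO group was labelled Mof-KO and the WT group wild type, and both were C57BL/6J cells with Mof fl/fl alleles and Cre-ER TM, so the WT cells carried the floxed alleles and the inducible Cre as well. The labels give ethanol or 4-hydroxytamoxifen (100 nM) for 3 days without saying which group had which, and they name neither the promoter of the Cre nor the number of clones. Released, ETO and Control were the E14tg2a line: ETO cells had etomoxir, labelled an inhibitor of fatty acid oxidation, for 4 days at a dose the labels do not give, Released cells had 4 further days without it, and Control cells had water. Each of the 5 groups had 2 libraries, described as biological duplicates. Nothing more says how separate the cultures were, so p-values measure the spread between these libraries.

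In each round of beta-oxidation an acyl-CoA dehydrogenase takes electrons from the acyl chain, a hydratase adds water, a second dehydrogenase forms a ketone, and a thiolase releases acetyl-CoA and a shortened chain. Very-long-chain and long-chain substrates pass largely through enzymes at the inner membrane, including the trifunctional protein made of HADHA and HADHB. Shorter chains pass through soluble matrix enzymes. LCAD, the long-chain dehydrogenase encoded by Acadl, is an enzyme of the matrix as well. The electrons of the first step travel through the electron transfer flavoprotein and ETFDH to ubiquinone. Mof, the gene Kat8, encodes an acetyltransferase of histone H4, and etomoxir is known as an inhibitor of carnitine palmitoyltransferase 1, which acts before beta-oxidation.

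The deposited count values are reads divided by 1 factor per library, written here as normalised counts, and the totals correspond to about 9664010 to 16684700 reads per library. The value resting on the fewest reads, Hadhb in KO replicate 1, corresponds to about 65 reads. The targeted gene Kat8 had 221.7 and 205.5 normalised counts in KO and 433.5 and 357.1 in WT, a log2 change of -0.88 ± 0.11 (SE; adjusted p = 3.65e-05). Its row covers the whole gene and the labels do not say which exons are floxed. The same gene had 565.7 and 529.7 normalised counts in ETO and 372.2 and 383.2 in Control. All 10 embryonic stem cell markers were detected in every group. Their summed FPKM (fragments scaled to transcript length and library size) was 3000 to 3090 in KO and 3020 to 3430 in WT, and 3410 to 3490 in Released, 2110 to 2120 in ETO and 3310 to 3440 in Control.

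Genes were called at an adjusted p under 0.05 (limma on log2(normalised count + 1), 2-sided, Benjamini-Hochberg over all tested genes), and log2 changes are on that scale with their SE. In KO cells the transcripts of Acadvl, Acad9, Hadha, Acaa2 and Etfdh were lower than in WT, Acadm was higher, and Acadl, Hadhb, Echs1 and Hadh were not called. Acadvl, the dehydrogenase for very long chains, had the largest of these changes and fell by 55.7%, and the other 4 changed by -25.6% to -29.0%. In all, 6 of the 10 enzymes were called, beside 37.9% of all tested genes. Of these, 1 was higher, beside 24.6% of all genes, and 5 were lower, beside 13.3%. The median log2 change was -0.28 for the enzymes and 0.08 for all tested genes. With each library divided by its total signal instead, the median of all genes moved to -0.07, 0 enzymes were higher and 7 lower, and 13.5% of all genes were higher and 22.7% lower. Of the 10 embryonic stem cell markers 3 were higher and 2 lower in KO. Of the 6 tested primed or formative markers 3 were higher and 0 lower in KO (7 markers summing to 44.6 to 44.7 FPKM in KO and 33.6 to 36.8 FPKM in WT). Of the 6 tested primitive endoderm markers 2 were higher and 1 lower (8 markers, 3.30 to 4.43 FPKM in KO and 3.68 to 4.22 FPKM in WT). Trophectoderm markers had 0 of 6 called (8 markers, 31.8 to 47.6 FPKM in KO and 32.0 to 37.3 FPKM in WT), and fibroblast markers 0 of 3 higher and 1 lower (8 markers, 2.31 to 2.42 FPKM in KO and 3.03 to 4.06 FPKM in WT). The part of these markers in the KO values was not tested. In bulk RNA, fewer cells of a type and less RNA per cell cannot be told apart.

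In ETO cells Acadl rose to 2.88 times and Etfdh to 2.21 times the Control level, Hadh rose by 21.0%, and Acadm, Echs1, Acaa2, Acad9 and Hadhb changed by -23.1% to -35.4%. Hadha and Acadvl were not called. In all, 8 of the 10 were called, beside 60.8% of all tested genes. There were 3 higher enzymes, beside 26.8% of all genes, and 5 lower enzymes, beside 34.0%. The median log2 change was -0.27 for the enzymes and -0.09 for all genes. Scaling by total signal moved the median of all genes to 0.09, left 3 enzymes higher and 3 lower, and gave 34.2% of all genes higher and 24.0% lower. Markers of other cell types moved with the treatment. The 8 trophectoderm markers summed to 611 to 703 FPKM in ETO and 18.7 to 19.6 FPKM in Control, and of the 6 that could be tested 5 were higher and 1 lower. The 8 primitive endoderm markers summed to 18.6 to 19.9 FPKM in ETO and 7.27 to 8.85 FPKM in Control, with 3 of 6 higher and 0 lower. The 7 primed or formative markers went the other way, summing to 27.1 to 30.6 FPKM in ETO and 68.9 to 70.8 FPKM in Control, with 0 of 6 higher and 5 lower. The 8 fibroblast markers summed to 3.00 to 4.26 FPKM in ETO and 2.59 to 3.61 FPKM in Control, with 1 of 3 higher and 1 lower. All 10 embryonic stem cell markers were lower in ETO. No marker was at 0 in all libraries, and the part of these cell type markers in the enzyme values was not tested.

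Most of the enzymes that changed in ETO changed in the opposite direction after release. Acadvl, Acadm, Acad9, Echs1 and Acaa2 were higher in Released than in ETO, and Acadl, Hadh and Etfdh were lower, so that 8 of the 10 were called beside 57.7% of all tested genes. The 5 higher enzymes stand beside 33.1% of all genes and the 3 lower enzymes beside 24.6%. With total signal as the scale there were 3 higher and 3 lower enzymes, beside 25.0% and 30.6% of all genes. Between Released and Control, 2 of the 10 were called, beside 12.5% of all tested genes. Acadvl was higher, beside 7.02% of all genes, and Echs1 was lower, beside 5.51%. Total signal as the scale left Acadvl higher and no enzyme lower, and gave 8.89% of all genes higher and 3.81% lower. Both of these calls were lost without trend and robust fitting and in the FPKM values. The comparisons among Released, ETO and Control share libraries, so likeness or opposition between them is not independent evidence. In Released, trophectoderm markers summed to 94.0 to 101 FPKM, and against ETO 1 of 6 was higher and 5 were lower. Primitive endoderm markers summed to 17.6 to 19.1 FPKM, near their ETO sum, with 1 of 6 higher and 3 lower than in ETO. Primed or formative markers summed to 73.6 to 74.6 FPKM, with 6 of 6 higher than in ETO, and fibroblast markers to 6.49 to 6.90 FPKM, with 2 of 3 higher and 1 lower. All 10 embryonic stem cell markers were higher in Released than in ETO. Against Control, 3 of 6 trophectoderm, 2 of 6 primitive endoderm and 0 of 3 fibroblast markers were higher and none of these lower, and of the primed or formative markers 1 was higher and 1 lower. Embryonic stem cell markers had 1 of 10 higher and 0 lower than in Control. The part of these markers in the Released values was not tested either.

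**Figure D1:**
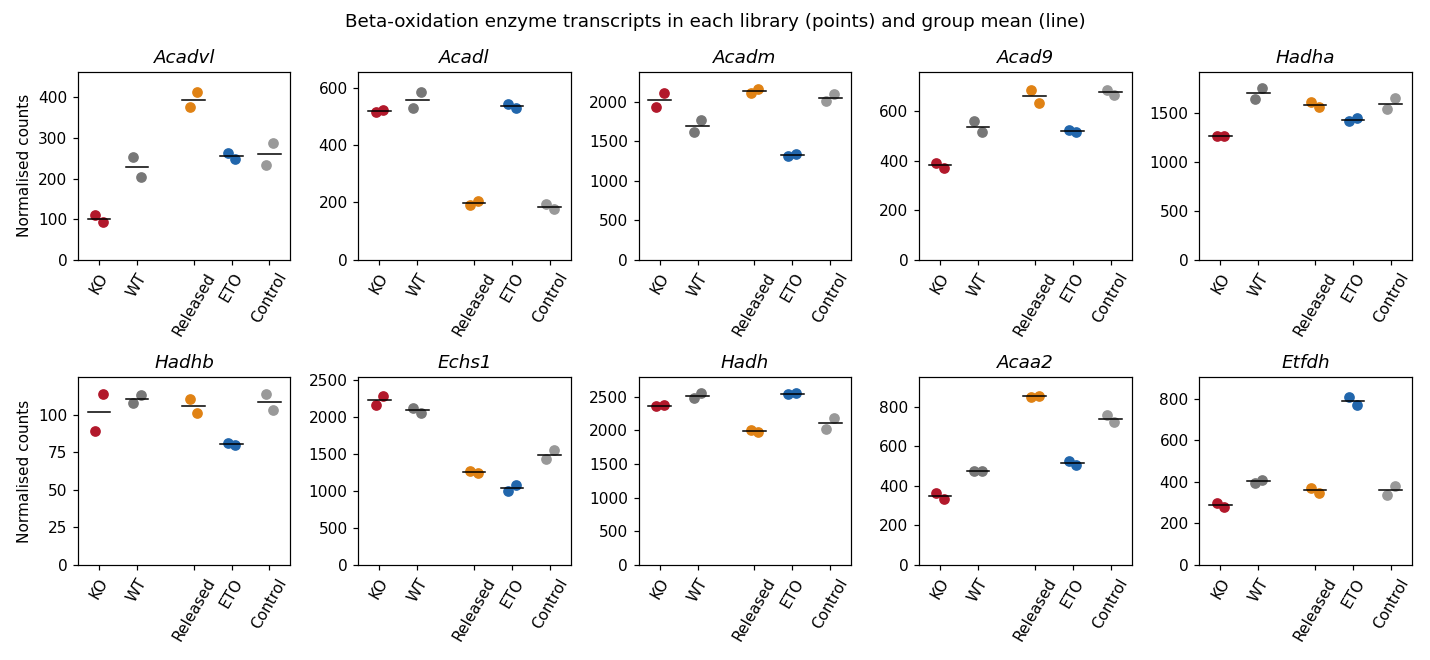
Normalised counts (y axis, linear from 0) of the 10 enzyme transcripts in each of the 10 libraries, with KO and WT on the left of each panel and Released, ETO and Control on the right. Points are libraries and lines are group means; Acadl and Etfdh are high in ETO and Acadvl is low in KO.

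**Figure D2:**
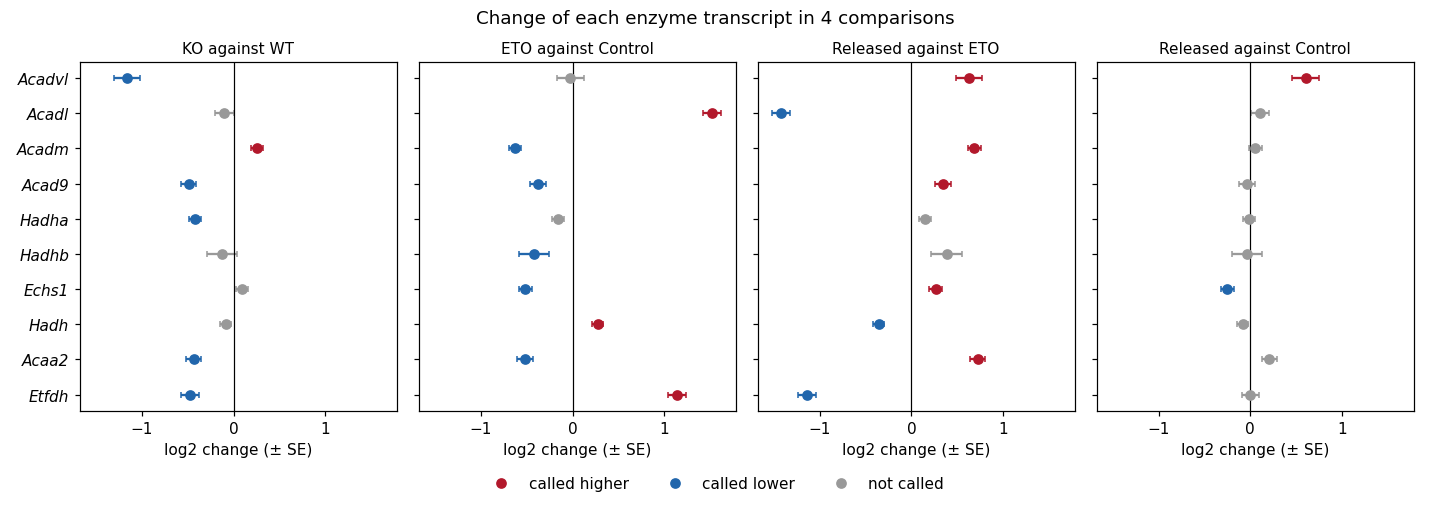
Log2 change (x axis, bars are ± SE) of each enzyme transcript in 4 comparisons, coloured by whether it was called at an adjusted p under 0.05. From the left panel to the right, 6, 8, 8 and 2 enzymes are called.

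Levels were compared between genes only per length. Acadm was the most abundant of the enzymes, at 122 to 234 FPKM over the 10 libraries, followed by Hadh, Echs1 and Hadha, which lay between 60.2 and 132 FPKM. A middle group was formed by Acad9 with 18.0 to 41.5 FPKM, Acaa2 with 17.0 to 43.6 FPKM and Acadl with 8.55 to 29.3 FPKM. Etfdh had 8.64 to 25.9 FPKM, Acadvl 4.06 to 25.6 FPKM and Hadhb 4.23 to 6.82 FPKM. Acadm, Hadh and Echs1, which act on medium and short chains, lay above Acadvl and Acadl in every library. So did Hadha, of the trifunctional protein for long chains. Acaa2, the thiolase for medium chains, lay below Acadl in the KO, WT and ETO libraries and above it in Released and Control. The ratio of Acadl to Acadm, the long-chain to the medium-chain dehydrogenase, was 0.136 and 0.118 in KO and 0.149 in both WT libraries. It was 0.0382 and 0.0489 in Released, 0.241 and 0.188 in ETO, and 0.042 and 0.039 in Control, so the ETO libraries lay above all others.

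**Figure D3:**
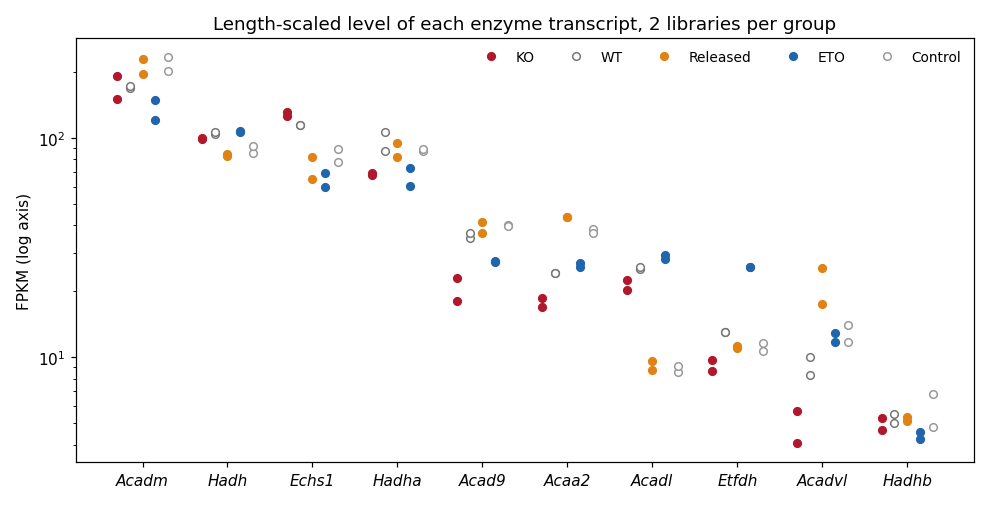
FPKM (y axis, log scale) of each enzyme transcript, ordered by level, with 2 points per group. Acadm spans 122 to 234 FPKM and Hadhb 4.23 to 6.82 FPKM; the spread between groups is widest for Acadvl and Acadl.

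Among the acyl-CoA dehydrogenases, Acadvl encodes VLCAD, which starts the oxidation of very long chains at the inner membrane (chr11:70010183-70015411 on mm10, minus strand). It had 109.6 and 92.1 normalised counts in KO and 251.8 and 203.4 in WT. The KO values correspond to only about 80.5 and 69.6 reads. Both KO libraries lay below every other library of the series. The change was -1.16 ± 0.14 on the log2 scale (adjusted p = 2.25e-05), and it was called in all 21 alternatives, with values between -1.33 and -0.91. In the second experiment Acadvl had 376.5 and 412.3 normalised counts in Released, 262.8 and 247.2 in ETO, and 233.6 and 287.0 in Control. ETO and Control overlapped, with a log2 change of -0.02 ± 0.14 (adjusted p = 0.903). Released lay above both, by 0.63 ± 0.14 over ETO (adjusted p = 0.00151) and by 0.60 ± 0.14 over Control (adjusted p = 0.0119). The higher level over Control was no longer called without Released replicate 1 (0.67, adjusted p = 0.0535), without Released replicate 2 (0.54, adjusted p = 0.124) or without Control replicate 1 (0.46, adjusted p = 0.151). Acadvl was the only enzyme that had its highest level after release and an ETO level within the spread of Control.

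The 3′ part of Acadvl overlaps Dvl2, a Wnt signalling gene on the opposite strand, with a shared transcript stretch of 256 bases, and strand use in counting is not given. Reads from that stretch cannot be told apart, so both genes are uncertain there. The Dvl2 row had 3339 and 3124 normalised counts in KO and 3010 and 2577 in WT, a log2 change of 0.21 ± 0.07 (adjusted p = 0.0345). It had 1585 and 1532 in Released, 2774 and 2808 in ETO, and 1595 and 1480 in Control. Dvl2 therefore did not fall where Acadvl fell. The 120 bases before the RefSeq start of Acadvl are shown because this gene had the largest change in KO among the 10 enzymes; the capitals mark a match to AGGTCA, the core letters bound by many nuclear receptors (GRCm38.p6, chr11:70015429-70015548, minus strand).
Acadvl: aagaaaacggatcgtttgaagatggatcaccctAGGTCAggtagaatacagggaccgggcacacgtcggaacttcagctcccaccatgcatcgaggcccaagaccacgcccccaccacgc

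Acadl encodes LCAD, the long-chain dehydrogenase of the matrix (chr1:66830839-66863277, minus strand). It had 516.6 and 522.3 normalised counts in KO and 528.4 and 587.1 in WT. The KO libraries were the lower ones by a small margin, and the log2 change of -0.10 ± 0.10 was not called (adjusted p = 0.458). With total signal as the scale it was called lower (-0.27, adjusted p = 0.0435). It had 192.8 and 206.2 normalised counts in Released, 542.7 and 528.9 in ETO, and 193.7 and 177.5 in Control. Both ETO libraries lay far above the other 4 of that experiment, which overlapped each other. The rise in ETO was 1.53 ± 0.10 (adjusted p = 3.53e-09) and the fall after release 1.42 ± 0.10 (log2 change -1.42, adjusted p = 9.81e-09), both called in all 21 alternatives. The ETO level in E14tg2a cells was in the range of the KO and WT libraries, which come from another line and experiment, and this difference between lines was not tested.

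The 120 bases before the RefSeq start of Acadl, which had the largest change in ETO among the 10 enzymes, hold 4 matches to the GC box (GGGCGG on either strand, here in capitals as CCGCCC), a recognition sequence of Sp1-type factors (chr1:66863310-66863429, minus strand). The GC content of this stretch is 83.3%.
Acadl: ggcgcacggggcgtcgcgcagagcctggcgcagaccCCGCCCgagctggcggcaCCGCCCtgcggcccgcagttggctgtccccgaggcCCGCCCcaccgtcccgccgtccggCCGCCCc

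Acadm encodes MCAD, the medium-chain dehydrogenase (chr3:153922357-153944632, minus strand). It had 1931 and 2109 normalised counts in KO and 1619 and 1769 in WT, without overlap, and the change of 0.25 ± 0.07 was called (adjusted p = 0.00875). This was the least stable of the KO calls. It was lost with TMM factors (0.18, adjusted p = 0.0526), with median-of-ratios factors (0.17, adjusted p = 0.0505) and with total signal (0.09, adjusted p = 0.321). It was also lost without trend and robust fitting (adjusted p = 0.0508) and in the fit per experiment (adjusted p = 0.0658). Without KO replicate 2 its value was 0.19, and the FPKM values gave -0.02. In the second experiment Acadm had 2112 and 2163 normalised counts in Released, 1315 and 1341 in ETO, and 2007 and 2104 in Control. The ETO libraries were the lowest of the series for this gene. Acadm fell by 0.63 ± 0.07 in ETO (log2 change -0.63, adjusted p = 1.1e-06) and rose by 0.69 ± 0.07 after release (adjusted p = 5.06e-07), in all 21 alternatives. The long-chain and the medium-chain dehydrogenase thus went in opposite directions under etomoxir, while the very-long-chain dehydrogenase was not called.

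The processed pseudogene Gm5131 resembles Acadm in 93.5% of 681 aligned bases, and 4.1% of the 50-base windows of the Acadm transcript occur in it. It had 160.2 to 283.3 normalised counts over the 10 libraries, against 1315 to 2163 for Acadm. The stretch of the Acadm promoter shown here holds the core letters of the NRF1 site, GCGCATGCG, on the opposite strand (capitals; chr3:153944769-153944828, minus strand). NRF1 is a regulator of many nuclear genes for mitochondrial proteins.
Acadm: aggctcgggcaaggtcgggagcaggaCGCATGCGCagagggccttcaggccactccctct

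Acad9 is related to Acadvl in sequence and is best known for its role in the assembly of respiratory complex I (chr3:36065979-36092853, plus strand). Its row, which includes Gm43079, had 392.8 and 371.8 normalised counts in KO and 560.8 and 516.4 in WT. It had 687.9 and 633.9 in Released, 522.9 and 517.3 in ETO, and 686.9 and 666.3 in Control. KO lay below WT and ETO below both other groups of its experiment. The log2 changes were -0.49 ± 0.09 in KO (adjusted p = 4.06e-04), -0.38 ± 0.09 in ETO (adjusted p = 0.00126) and 0.34 ± 0.09 after release (adjusted p = 0.00289). The ETO change became -0.19 (adjusted p = 0.083) and the change after release 0.20 (adjusted p = 0.07) when libraries were scaled by total signal. Of the 50-base windows of the Acad9 transcript, 12.9% occur in another gene, nearly all in Gm43079.

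The trifunctional protein does the later steps for long chains: its alpha subunit Hadha carries the hydratase and 3-hydroxyacyl-CoA dehydrogenase, and its beta subunit Hadhb the thiolase. Hadha had 1263 and 1262 normalised counts in KO and 1644 and 1751 in WT, with no overlap, a change of -0.43 ± 0.07 (adjusted p = 1.58e-04) that was called in all 21 alternatives. It had 1606 and 1558 in Released, 1412 and 1450 in ETO, and 1537 and 1652 in Control. ETO was the lowest group of that experiment, but its log2 change of -0.16 ± 0.07 missed the threshold (adjusted p = 0.0538). It was called without WT replicate 1 (adjusted p = 0.0269) or without WT replicate 2 (adjusted p = 0.0270), which enter only the shared estimate of the spread. It was also called in FPKM (-0.41, adjusted p = 0.0306), with a minimum of 30 normalised counts (adjusted p = 0.0491) and in the fit per experiment (adjusted p = 0.0171), and it turned to 0.03 with total signal as the scale. The change after release, 0.14 ± 0.07 (adjusted p = 0.0730), was likewise called without WT replicate 1 (adjusted p = 0.0391) or WT replicate 2 (adjusted p = 0.0394), in FPKM (0.41, adjusted p = 0.0314) and in the fit per experiment (adjusted p = 0.0261).

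Hadhb had 88.8 and 113.9 normalised counts in KO and 107.4 and 112.9 in WT, which overlapped (log2 change -0.13 ± 0.17, adjusted p = 0.58). It had 110.2 and 100.8 in Released, 81.1 and 79.7 in ETO, and 113.4 and 102.7 in Control. The ETO libraries were the lowest of the series. The ETO change of -0.42 ± 0.17 passed the threshold narrowly (adjusted p = 0.0404) and was lost in 11 of 22 alternatives, among them those without Released replicate 1 (adjusted p = 0.0522), Released replicate 2 (adjusted p = 0.0515), ETO replicate 1 (adjusted p = 0.102), ETO replicate 2 (adjusted p = 0.121), Control replicate 1 (adjusted p = 0.179) or Control replicate 2 (adjusted p = 0.0642). After release the change of 0.39 ± 0.17 was not called (adjusted p = 0.0602), except without KO replicate 1 (adjusted p = 0.0419) or KO replicate 2 (adjusted p = 0.0437), without trend and robust fitting, in the fit per experiment, and with the summed counts described next.

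The level of Hadhb is uncertain because of near-identical copies. The processed pseudogene Gm13910 on chromosome 2 matches Hadhb in 99.8% of 1428 aligned bases, and only 3 of the 1425 coding bases differ. A second processed pseudogene on chromosome 15, Gm9108, matches in 97.6% and has no row in the table. Of the 50-base windows of the Hadhb transcript, 62.4% occur on the same strand of another gene's transcript. No window of the Hadha, Acadvl, Acadl, Echs1, Hadh, Acaa2 or Etfdh transcripts does. Coding bases 171 to 230 are shown for both genes to make the likeness visible, with the single base that differs in capitals.
Hadhb: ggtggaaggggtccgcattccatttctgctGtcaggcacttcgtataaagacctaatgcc
Gm13910: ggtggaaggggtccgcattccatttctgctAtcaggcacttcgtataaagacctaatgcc

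The Gm13910 row held more than the Hadhb row in every library, with 145.3 and 184.6 normalised counts in KO and 201.8 and 210.1 in WT. It held 199.0 and 226.2 in Released, 166.1 and 152.8 in ETO, and 270.8 and 273.0 in Control. How the counting assigned reads that fit both genes is not given. The FPKM of Hadha was 12.8 to 19.3 times that of Hadhb across the libraries, although the subunits belong to the same complex. With the counts of Hadhb and Gm13910 added together, an alternative chosen after seeing the data, the log2 change was -0.26 in KO (adjusted p = 0.101), -0.66 in ETO (adjusted p = 1.68e-04), 0.41 after release (adjusted p = 0.00825) and -0.26 in Released over Control (adjusted p = 0.176). The sum gave the ETO fall and the return with a wider margin than the Hadhb row alone, and KO was not called in either. The Gm13910 row alone had -0.77 ± 0.14 in ETO (adjusted p = 1.52e-04) and 0.41 ± 0.14 after release (adjusted p = 0.0169). Its changes of -0.33 ± 0.14 in KO (adjusted p = 0.0691) and -0.36 ± 0.14 in Released over Control (adjusted p = 0.101) were not called. The sum therefore cannot say which of the 2 genes changed.

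Hadha and Hadhb lie head to head on chromosome 5, with GENCODE starts 86 bases apart on opposite strands. The RefSeq starts used for the promoter windows can differ from these. The 85 bases between them (chr5:30155163-30155247, plus strand, 69.4% GC) are shown because both genes share them as the stretch next to their start; the capitals mark 2 GC boxes. None of these bases lies in an annotated exon.
Hadha-Hadhb: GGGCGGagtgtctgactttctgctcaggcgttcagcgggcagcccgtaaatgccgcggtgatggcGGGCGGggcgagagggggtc

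The soluble enzymes of the later steps behaved differently from each other. Echs1 encodes the short-chain enoyl-CoA hydratase, which also acts in valine breakdown (chr7:140105710-140116476, minus strand). It had 2161 and 2286 normalised counts in KO and 2123 and 2058 in WT, and the log2 change of 0.09 ± 0.07 was not called (adjusted p = 0.337). It had 1263 and 1243 in Released, 1005 and 1080 in ETO, and 1428 and 1553 in Control. These 3 groups did not overlap, with ETO lowest and Released in between. The fall in ETO was 0.51 ± 0.07 (log2 change -0.51, adjusted p = 9.71e-06), and Released was higher than ETO by 0.27 ± 0.07 (adjusted p = 0.00378) and lower than Control (log2 change -0.25 ± 0.07, adjusted p = 0.0272). Echs1 was the only enzyme called lower in Released than in Control. That call was lost without any 1 of Released replicate 1 (-0.26, adjusted p = 0.13), Released replicate 2 (-0.24, adjusted p = 0.17), Control replicate 1 (-0.31, adjusted p = 0.0549) or Control replicate 2 (-0.19, adjusted p = 0.241). The change after release was lost with total signal (0.12, adjusted p = 0.15) and in FPKM (0.18, adjusted p = 0.281). Echs1 overlaps Paox on the opposite strand, and Paox, a polyamine oxidase gene, had 169.5 and 184.2 normalised counts in KO, 274.7 and 252.3 in WT, 119.5 and 97.3 in Released, 117.6 and 119.6 in ETO, and 178.3 and 164.0 in Control.

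Hadh encodes the 3-hydroxyacyl-CoA dehydrogenase for medium and short chains (chr3:131233419-131272101, minus strand). It had 2360 and 2377 normalised counts in KO and 2476 and 2551 in WT, a change of -0.09 ± 0.06 that was not called (adjusted p = 0.291). With TMM factors it was called lower (-0.16, adjusted p = 0.0459), as it was with median-of-ratios factors (-0.16, adjusted p = 0.0435) and total signal (-0.25, adjusted p = 0.00512). It had 2008 and 1979 normalised counts in Released, 2542 and 2558 in ETO, and 2025 and 2191 in Control. Hadh was higher in ETO than in Control by 0.28 ± 0.06 (adjusted p = 9.87e-04) and fell after release by 0.36 ± 0.06 (log2 change -0.36, adjusted p = 1.23e-04). Hadh had the narrowest range of all the enzymes, with a highest group mean 1.28 times the lowest.

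Acaa2 encodes the 3-ketoacyl-CoA thiolase of the matrix, which ends the round for medium chains. It had 365.9 and 333.8 normalised counts in KO and 473.8 and 474.2 in WT, a change of -0.44 ± 0.08 (adjusted p = 7.7e-04). It had 852.5 and 854.2 in Released, 525.8 and 505.6 in ETO, and 757.3 and 722.3 in Control. No pair of groups overlapped, and Released was highest. Acaa2 fell by 0.52 ± 0.08 in ETO (log2 change -0.52, adjusted p = 5.81e-05) and rose by 0.73 ± 0.08 after release (adjusted p = 2.16e-06), and these calls and the KO call held in all 21 alternatives. Its change of 0.21 ± 0.08 in Released over Control was not called (adjusted p = 0.12), though it was in the fit per experiment (adjusted p = 0.034).

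Etfdh encodes the enzyme that hands the electrons of the dehydrogenases to ubiquinone (chr3:79603788-79629500, minus strand). It had 297.5 and 280.1 normalised counts in KO and 392.4 and 410.4 in WT, a change of -0.47 ± 0.10 (adjusted p = 0.00137). It had 368.4 and 348.0 in Released, 809.7 and 771.4 in ETO, and 334.6 and 381.9 in Control. KO held the lowest libraries of the series and ETO the highest, and Released and Control overlapped. The rise in ETO was 1.14 ± 0.10 (adjusted p = 6.77e-08) and the change after release -1.14 ± 0.10 (adjusted p = 8.49e-08). All 3 calls held in all 21 alternatives. Released over Control gave a log2 change of 0.00 ± 0.10 (adjusted p = 0.994). The gene 4930579G24Rik overlaps the start of Etfdh on the opposite strand. It had 290.5 and 336.4 normalised counts in KO, 236.9 and 305.3 in WT, 173.5 and 181.6 in Released, 140.2 and 127.8 in ETO, and 170.6 and 148.4 in Control. Its lowest libraries were those of ETO, but its ETO change of -0.25 ± 0.14 was not called (adjusted p = 0.149). Its KO change of 0.22 ± 0.14 was not called either (adjusted p = 0.259). After release it rose by 0.41 ± 0.14 (adjusted p = 0.0247).

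The changes in KO and in ETO were set against each other in the same fit, as the KO change minus the ETO change. The cell line, the experiment and the treatment differ together between these comparisons and cannot be told apart. For 7 of the 10 enzymes the difference was called, beside 54.5% of all tested genes. It was positive for Acadm (0.88 ± 0.10, adjusted p = 1.99e-06) and Echs1 (0.60 ± 0.10, adjusted p = 8.76e-05), 2 of 10 beside 32.3% of all genes. It was negative for 5 of 10, beside 22.2% of all genes. Among these, Acadl had -1.63 ± 0.14 (adjusted p = 1.7e-07) and Etfdh -1.62 ± 0.14 (adjusted p = 1.44e-07) and both were called higher in ETO, while in KO Etfdh was lower and Acadl not called. Acadvl had -1.14 ± 0.20 (adjusted p = 2.1e-04), called lower in KO and not called in ETO. In FPKM this difference was not called (-0.84, adjusted p = 0.0707). Hadh had -0.36 ± 0.09 (adjusted p = 0.00221).

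Hadha had a difference of -0.27 ± 0.09 (adjusted p = 0.0229). That call was lost without KO replicate 2 (-0.27, adjusted p = 0.0501), ETO replicate 2 (-0.25, adjusted p = 0.0689) or Control replicate 1 (-0.22, adjusted p = 0.108), without trend and robust fitting (adjusted p = 0.0583), and in FPKM (-0.09, adjusted p = 0.714). Acad9 and Acaa2 were lower in both KO and ETO, and their differences of -0.11 ± 0.12 (adjusted p = 0.449) and 0.08 ± 0.12 (adjusted p = 0.585) were not called. That of Acad9 was called with total signal as the scale (-0.47, adjusted p = 0.00595). Total signal as the scale gave 2 enzymes with a positive and 6 with a negative difference, beside 18.5% and 35.0% of all genes.

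**Figure D4:**
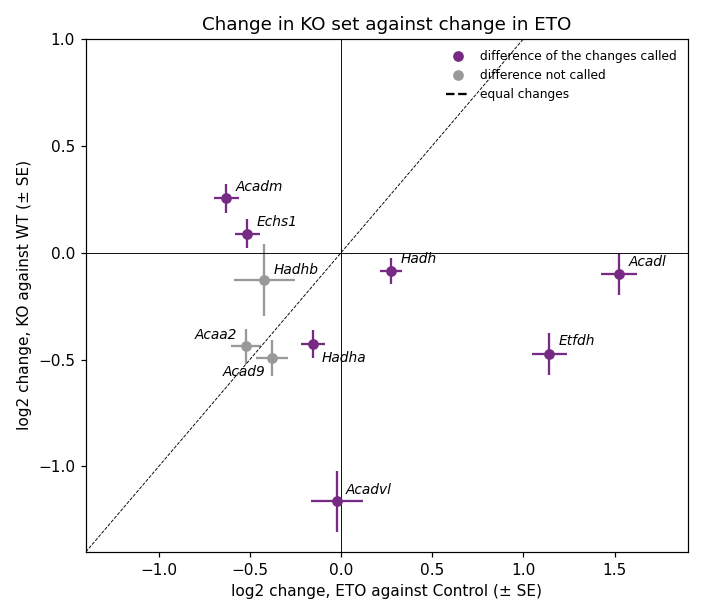
Log2 change in KO against WT (y axis) plotted against log2 change in ETO against Control (x axis) for the 10 enzymes, with bars of ± SE and a dashed line of equal changes. Acadl and Etfdh lie far to the right at 1.53 and 1.14 in ETO, Acadvl lies lowest at -1.16 in KO, and the grey points are Acad9, Hadhb and Acaa2, whose difference was not called.

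The patterns over the 5 groups were compared by the root mean square difference between centred group means on the log2 scale. The enzymes closest to each other were Hadha and Hadhb and also Acadm and Hadhb, each pair at 0.160, followed by Acad9 and Acaa2 at 0.198. The farthest apart were Acadvl and Acadl at 1.22. Among all other tested genes with a row of their own, Neu1 (0.081) was near to Acadl. Nearest to Acadm were Grb2 (0.022) and Mxi1 (0.025), and nearest to Etfdh were Hcfc2 (0.081) and Myo6 (0.085). Hadh was nearest to Fam175b (0.018) and to Eci2 (0.034), which encodes an enoyl-CoA isomerase for unsaturated fatty acids. Among the genes named in this comparison, Eci2 alone is in the pathway lists used here.

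Of the enzyme genes, 8 had an entry among the RefSeq promoters of GRCm38.p6, which run from 250 bases before to 50 bases after the start. Acad9 and Acaa2 had none. The GC box GGGCGG was found on either strand in 6 of the 8 (Acadl, Etfdh, Hadh, Hadha, Hadhb and Echs1), and in 35.7% of all 32851 promoters. The windows of Hadha and Hadhb, which lie head to head, can hold the same bases, so their matches are not independent. The NRF1 core GCGCATGCG was found in Etfdh and Acadm, 2 of the 8, and in 1.75% of all promoters. AGGTCA, which is also the end of the ERR element searched, was found in Acadm, Echs1 and Acadvl, and in 16.3% of all. The ATF4 core TGATGNAAN was found in Echs1 alone, and in 3.95% of all. No match was found in the 8 to the ERR element TNAAGGTCA (1.28% of all), the CRE TGACGTCA (1.79% of all) or the E-box CACGTG (7.15% of all). These matches describe letters in these windows and nothing more.

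The genes around these enzymes in fatty acid oxidation were counted in the same fit, with all values as log2 changes. Their counts stand beside the same shares of all tested genes as above, 24.6% higher and 13.3% lower in KO and 26.8% higher and 34.0% lower in ETO, 33.1% and 24.6% in Released against ETO, and with total signal as the scale 13.5% and 22.7% in KO and 34.2% and 24.0% in ETO. In the carnitine shuttle, which brings acyl groups into the matrix, 7 genes were tested. In ETO 6 were higher and 0 lower, with a median of 0.98, in Released against ETO 0 were higher and 6 lower, and in KO 2 were higher and 2 lower. With total signal as the scale 7 were higher and 0 lower in ETO, and 1 was higher and 4 lower in KO. Cpt1a, the palmitoyltransferase of the outer membrane, had 4365 and 4392 normalised counts in ETO and 2297 and 2153 in Control, a change of 0.98 ± 0.06 (adjusted p = 1.2e-09). In KO it had 2973 and 2928 normalised counts and in WT 3677 and 3589 (-0.30 ± 0.06, adjusted p = 8.62e-04). Cpt2, its partner at the inner membrane, rose by 1.15 in ETO and fell by 0.46 in KO. The row of Cpt1b is shared with Chkb and cannot be assigned to either. Acadl, Hadh and Etfdh were higher in the same ETO cells, and Acadm, Acad9, Hadhb, Echs1 and Acaa2 were lower.

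Of 9 tested rows of other straight-chain beta-oxidation enzymes, 1 was higher and 5 were lower in KO, and likewise 1 was higher and 5 were lower in ETO. With total signal 0 were higher and 5 lower in KO, and 4 were higher and 3 lower in ETO. Acat1, the thiolase for acetoacetyl-CoA, fell most clearly, with 282.5 and 278.8 normalised counts in KO and 620.1 and 600.8 in WT (-1.12 ± 0.10, adjusted p = 2.03e-06), and with 124.5 and 129.5 in ETO and 364.4 and 333.2 in Control (-1.45 ± 0.10, adjusted p = 8.79e-09). Hsd17b10, a dehydrogenase of short and branched chains, fell by 1.04 in ETO (adjusted p = 2.47e-08). Decr1, the reductase for unsaturated chains, fell by 0.73 in KO (adjusted p = 4.06e-04). The short-chain dehydrogenase Acads, in a row shared with Rpl37rt, fell by 0.43 in ETO and had a change of 0.01 in KO that was not called. The row of Acad10 and Acad12 was the higher one in ETO, at 1.39 ± 0.17 (adjusted p = 5.17e-06).

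The electron transfer flavoprotein and other dehydrogenases that feed it were 10 tested genes, with 0 higher and 4 lower in KO and 1 higher and 5 lower in ETO. Total signal as the scale gave 0 higher and 6 lower in KO and 1 higher and 4 lower in ETO. Its subunit Etfa was the higher one, with a change of 0.29 in ETO. The row of the other subunit, Etfb, which also holds Vsig10l, fell by 0.23. Etfdh, which takes their electrons, rose by 1.14 in the same cells. Dmgdh, a dehydrogenase of choline breakdown, had 724.8 and 667.2 normalised counts in ETO and 1679 and 1646 in Control (-1.26 ± 0.10, adjusted p = 2.4e-08), and it fell by 0.84 in KO (adjusted p = 1.31e-05). Of the 6 tested partners of ACAD9 in complex I assembly, 1 was higher and 2 lower in KO, and 2 were higher and 2 lower in ETO. With total signal the KO count was 0 higher and 4 lower, and the ETO count was again 2 and 2. Ecsit, which binds ACAD9, had 334.8 and 321.2 normalised counts in KO and 509.2 and 471.7 in WT, and 266.6 and 306.8 in ETO and 441.8 and 412.9 in Control. Its changes of -0.58 in KO (adjusted p = 3.9e-04) and -0.58 in ETO (adjusted p = 1.28e-04) had the sign of those of Acad9, whereas Timmdc1 rose by 0.73 in ETO (adjusted p = 3.13e-05).

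In the peroxisomal route 13 genes were tested, with 0 higher and 4 lower in KO and 4 higher and 7 lower in ETO. Total signal gave 0 higher and 7 lower in KO and 4 higher and 5 lower in ETO. Hsd17b4, the bifunctional enzyme of its hydration and second dehydrogenation, had 557.0 and 613.9 normalised counts in KO and 968.0 and 1021 in WT (-0.76 ± 0.08, adjusted p = 7.46e-06). Of 12 tested genes for acyl-CoA synthetases and thioesterases, 3 were higher and 3 lower in KO, and 3 were higher and 5 lower in ETO (with total signal 2 and 4 in KO, and 4 and 5 in ETO). The largest change in ETO in that list was that of the row of the thioesterases Acot1 and Acot2, with 565.4 and 572.9 normalised counts in ETO and 34.1 and 41.5 in Control (3.88 ± 0.17, adjusted p = 4.06e-11). Of 7 tested odd-chain and ketone body enzymes, 0 were higher and 4 lower in KO, and 1 was higher and 4 lower in ETO (with total signal 0 and 7 in KO, and 2 and 4 in ETO). Bdh1, a dehydrogenase of ketone bodies, fell by 1.69 in ETO (adjusted p = 8.02e-10).

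Among 15 tested regulators of these genes, 2 were higher and 2 lower in KO, and 8 were higher and 4 lower in ETO (with total signal 1 and 4 in KO, and 9 and 3 in ETO). Ppard, a nuclear receptor for fatty acids, had 1468 and 1528 normalised counts in ETO and 538.3 and 572.9 in Control (1.43 ± 0.09, adjusted p = 1.41e-09). Its relatives Ppara and Pparg were too low to test, at no more than 6.61 and 4.15 normalised counts in any library. Ppargc1a, a coactivator of oxidative genes singled out after its values were seen, had 34.6 and 29.1 normalised counts in ETO and 1.10 and 0 in Control. Its relative Ppargc1b went the other way, with 50.4 and 63.1 normalised counts in ETO and 91.4 and 82.0 in Control. The row that a further relative, Pprc1, shares with Nolc1 fell by 0.74 in ETO (log2 change -0.74, adjusted p = 7.83e-09). Esrrb had a log2 change of -0.57 in ETO (adjusted p = 1.06e-07). Mlycd, which removes the CPT1 inhibitor malonyl-CoA, had 96.9 and 78.5 normalised counts in KO and 199.9 and 167.9 in WT (-1.06 ± 0.19, adjusted p = 4.41e-04). In ETO it had 161.1 and 171.9 and in Control 45.1 and 60.2, a rise of 1.66. For its KO change minus its ETO change, Mlycd had -2.72 ± 0.26 (adjusted p = 5.82e-07).

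**Figure D5:**
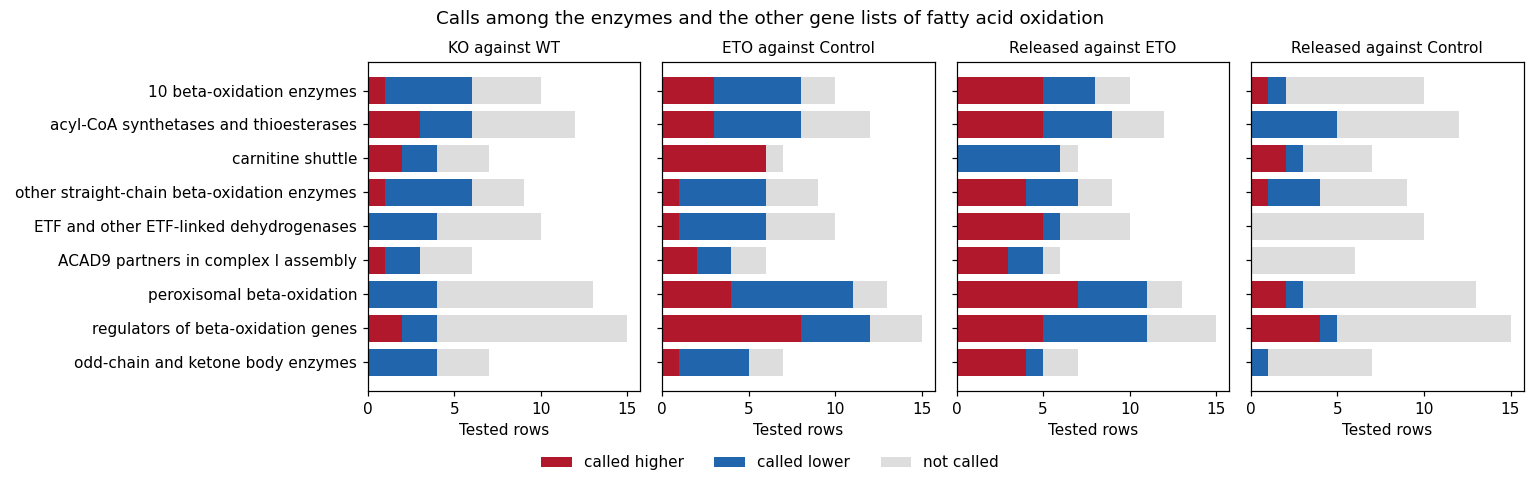
Number of tested rows (x axis) called higher, called lower and not called in 4 comparisons, for the 10 beta-oxidation enzymes (top) and 8 lists of neighbouring functions. The carnitine shuttle shows 6 of 7 higher in ETO, and the enzymes show 3 of 10 higher and 5 lower.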

How the data were processed

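RNA libraries were made with the Illumina TruSeq protocol and sequenced single-end, per the labels' protocols. The submitters' processing notes name TopHat2 2.1.1, SAMtools 1.5, deepTools and mm10; the counting program and its strand setting are not given in the sources used here. The deposited gene table is headed as counts, but its values are a signal: reads divided by 1 factor per library. The factors were estimated from the low values as 0.693 to 1.36 normalised counts per read, with 90.4% to 91.7% of low values whole within 0.1 read. Single values of 1.345 in KO replicate 1 and 0.6886 in Released replicate 1 lie slightly below the factors estimated for these libraries. Read numbers given here are therefore approximate and slightly low. The deposited values are not raw counts, so no count model was fitted. The deposited FPKM table gives the same genes as FPKM, per the file headers. All columns had a sample.

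The test, on log2(value + 1), took genes whose value reached 10 in 2 or more libraries and used limma 3.58.1 (R 4.3.3; 1 mean per group over all 10 libraries, trend and robust moderation). The 2 mitochondrial rows listed at 0 in Released replicate 1 were left out. The script was tested on simulated data. Tables were made in Python 3.11.15 (pandas 2.3.3, numpy 2.4.6) and plots with matplotlib 3.10.9. The named genes were all 10 enzymes, up to 3 genes per list and comparison with the smallest adjusted p, the 2 genes nearest in pattern to each enzyme, neighbours starting within 1000 bases on the opposite strand, and Kat8; other genes were named after their values were seen. Some genes that this rule took are not reported here. Likeness was searched in the GENCODE transcripts of the same build. The enzymes and lists were chosen with earlier results of these data known. Scale, pseudocount, filter, moderation, unit, fit per experiment, replicate block and each library in turn were varied.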

Additional observations from a re-analysis of the deposited data

How the results depend on the processing

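Of 1045 values of single enzymes under the alternatives, 960 kept their direction and side of the threshold, 39 lost and 20 gained a call, and 26 changed sign. The cause of these changes was not tested. The number of enzymes called stayed within 1.5 times of 6 (KO against WT), 8 (ETO against Control and also Released against ETO) and 7 (KO change minus ETO change). For Released against Control it was 2, but 1 with total signal as the factor, 0 with neither trend nor robust fitting, 0 in FPKM, and 0 to 2 when a library was left out. Over all genes, KO against WT had 6086 calls and 2978 in FPKM. Released against Control had 2012 calls, 1171 with neither trend nor robust fitting, 351 in FPKM, 3661 in the fit per experiment, 826 and 771 without Released replicate 1 and 2, and 882 and 896 without Control replicate 1 and 2.

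Signs turned as follows (log2 change), all for values not called in either setting except Acadm in KO. In KO, Acadm had -0.017 in FPKM and Echs1 -0.077 with total signal. In ETO, Acadvl had 0.063 with TMM factors, 0.081 with median-of-ratios factors and 0.17 with total signal, and Hadha 0.034 with total signal. For Released against Control, total signal gave 0.011 for Acad9, 0.036 for Hadha and 0.011 for Hadhb, FPKM gave -0.042 for Acadm, 0.0061 for Hadha and -0.13 for Foxred1, and TMM factors gave -0.0017 for Etfdh. For the KO change minus the ETO change, Hadhb had -0.059 with total signal, and Acaa2 -0.083, -0.10 and -0.27 with TMM factors, median-of-ratios factors and total signal. With libraries left out in turn, Hadhb in KO had -0.31 to 0.048, turning without KO replicate 1. Acadvl in ETO had -0.17 to 0.13, turning without ETO replicate 2 or Control replicate 2. For Released against Control the ranges were -0.094 to 0.024 for Acad9 and -0.063 to 0.042 for Hadha, -0.10 to 0.036 for Hadhb and -0.093 to 0.097 for Etfdh.

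Over all tested genes, the replicate 1 deviations of the groups correlated by -0.04 to 0.08. With 2 libraries per group these values cannot say what same-numbered libraries share beyond a number, and the labels name no pairing. With the replicate block, 6 enzymes were called for KO against WT, 8 each for ETO against Control and Released against ETO, 2 for Released against Control and 7 for the KO change minus the ETO change. Hadhb, whose values rest on about 65 to 159 reads, had the largest SE of the enzymes (0.17 on the log2 scale), and small differences in it may have been missed. The part of read depth, of 2 libraries per group and of the near-identical copies in this SE was not tested.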
